A study of Homo sapiens with 6 samples.

Results

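Cohesin, condensin and CTCF shape chromosomes by folding DNA into loops, and 10 of their genes were compared between Jurkat cells kept in collagen and Jurkat cells in suspension. The genes were SMC1A, SMC3, RAD21, STAG1, STAG2, NIPBL, WAPL, CTCF, SMC2 and SMC4, chosen by name. The value table paired 9 of the 10 with a probe set, 1 each, out of 17687 genes in all, and RAD21 was not analysed here. Jurkat is a single T cell line from a human acute lymphoblastic leukaemia (T-ALL). The cells called 3D were mixed into bovine type I collagen at 1.7 mg/mL before it set and were then covered with medium, for 3 h in all (3 arrays). The controls spent the same 3 h in suspension (3 arrays), and both groups grew in RPMI with fetal bovine serum. Replicates are numbered 1 to 3 in each group and are called biological, without a word on what separated the cultures, so p-values measure the spread between these samples.

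Cohesin is a ring in which SMC1A and SMC3, a pair of long ATPases, are closed by RAD21 and joined by either STAG1 or STAG2. NIPBL loads the ring and drives it to extrude DNA loops, WAPL takes it off, and CTCF, a zinc-finger protein, stops it at bound sites that become loop anchors. Condensin uses SMC2 and SMC4 in the same way to compact chromosomes for mitosis. In lymphocytes, CTCF and cohesin also fold the antigen receptor loci.

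Promoters of 4 of the genes are shown because they stand for the roles compared here: the loader NIPBL, the cohesin subunit SMC3, the condensin subunit SMC4, and CTCF, whose level hardly differed. The windows are RefSeq's on GRCh38.p14, all on the plus strand, from 250 bases before to 50 bases after an annotated start: chr5:36876519-36876818, chr10:110567445-110567744, chr3:160399400-160399699 (the first of 2 annotated starts) and chr16:67562276-67562575. Capitals mark matches, on either strand, to CCAAT, the box read by NF-Y, to TTTGAA, the CHR element of cell cycle genes, to TTTGGCGC or TTTCCCGC, forms of the E2F site, to TGCGCATGC, a form of the NRF1 site, and to CCGGAAGT, a form of the ETS site. None of these words overlap within the 4 windows.
NIPBL: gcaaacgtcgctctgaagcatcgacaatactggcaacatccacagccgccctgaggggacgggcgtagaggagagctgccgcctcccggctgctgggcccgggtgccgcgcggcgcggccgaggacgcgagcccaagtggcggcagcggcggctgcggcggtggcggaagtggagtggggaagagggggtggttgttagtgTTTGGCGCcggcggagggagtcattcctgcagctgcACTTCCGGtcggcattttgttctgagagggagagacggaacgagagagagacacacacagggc
SMC3: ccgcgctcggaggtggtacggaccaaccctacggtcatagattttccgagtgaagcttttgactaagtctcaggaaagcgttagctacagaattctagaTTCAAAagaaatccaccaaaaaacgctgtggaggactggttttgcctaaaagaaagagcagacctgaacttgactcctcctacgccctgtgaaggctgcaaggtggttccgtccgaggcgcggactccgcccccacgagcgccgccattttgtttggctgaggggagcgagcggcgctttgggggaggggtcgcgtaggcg
SMC4: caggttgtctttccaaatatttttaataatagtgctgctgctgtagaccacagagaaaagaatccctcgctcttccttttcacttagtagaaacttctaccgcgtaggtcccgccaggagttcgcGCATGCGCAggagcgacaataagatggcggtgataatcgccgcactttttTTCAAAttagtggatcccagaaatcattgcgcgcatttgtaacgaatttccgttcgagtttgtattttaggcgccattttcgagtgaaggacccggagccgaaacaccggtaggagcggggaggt
CTCF: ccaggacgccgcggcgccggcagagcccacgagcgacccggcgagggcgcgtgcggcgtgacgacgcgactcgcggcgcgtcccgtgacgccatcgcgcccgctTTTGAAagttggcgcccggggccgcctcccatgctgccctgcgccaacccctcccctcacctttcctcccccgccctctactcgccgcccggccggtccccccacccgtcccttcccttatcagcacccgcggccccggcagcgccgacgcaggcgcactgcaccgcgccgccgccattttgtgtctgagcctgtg

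The NIPBL window held TTTGGCGC and, on the other strand, the ETS word. The SMC3 and SMC4 windows each held the CHR word on the other strand, SMC4 also the NRF1 word, and the CTCF window held the CHR word on its own strand. The other genes lie on chromosomes X (SMC1A and STAG2), 3 (STAG1), 10 (WAPL) and 9 (SMC2). RefSeq lists 14 promoter windows for the 9 genes. An E2F word stood in 4 of the 14, those of SMC1A, STAG1, STAG2 and NIPBL (1 each), and in 2.27% of all 35116 promoters. The CHR word stood in 4 of the 14, those of SMC3, CTCF, SMC2 and SMC4, and in 15.2% of all promoters. CCAAT stood in 4 of the 14, belonging to STAG1, STAG2 and WAPL, and in 34.6% of all promoters. The NRF1 and ETS words stood in 1 of the 14 each, and in 1.56% and 4.14% of all promoters. GGGCGG, the GC box, was also counted but not marked above, and stood in 11 of the 14 and in 45.0% of all promoters. E2F and CHR words stood both in genes that measured higher in 3D and in SMC1A and CTCF, whose differences were near 0. Whether any of these words bears on the differences was not tested.

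The question put to these genes was how their transcript levels in 3D compared with those in suspension. Of the 9 genes, 7 measured 0.39 to 0.54 higher in 3D on the log2 scale, or 1.31 to 1.45-fold, while SMC1A and CTCF differed by 0.04 and 0.01. The 7 comprise SMC3, STAG1, STAG2, NIPBL, WAPL, SMC2 and SMC4, and each was higher in 3D in all 3 pairs of same-numbered arrays. None passed limma's test, adjusted over all genes by Benjamini-Hochberg (adjusted p 0.485 to 0.992 over the 9), nor did any of the 17687 genes, so the background was 0%. At an unadjusted p under 0.05 (limma), 4 of the 9 were higher, NIPBL, STAG1, STAG2 and WAPL, and 0 were lower, where 5.9% of all genes were higher. Higher values in all 3 pairs, seen for 7 of 9 here, were seen for 20.3% of all genes. The median log2 difference was 0.43 over the 9 genes and -0.02 over all genes. These backgrounds cover all 17687 genes, of which 8342 had a mean of at least 6, as all 9 genes did. No share among genes of like level was taken for these measures.

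**Figure D1:**
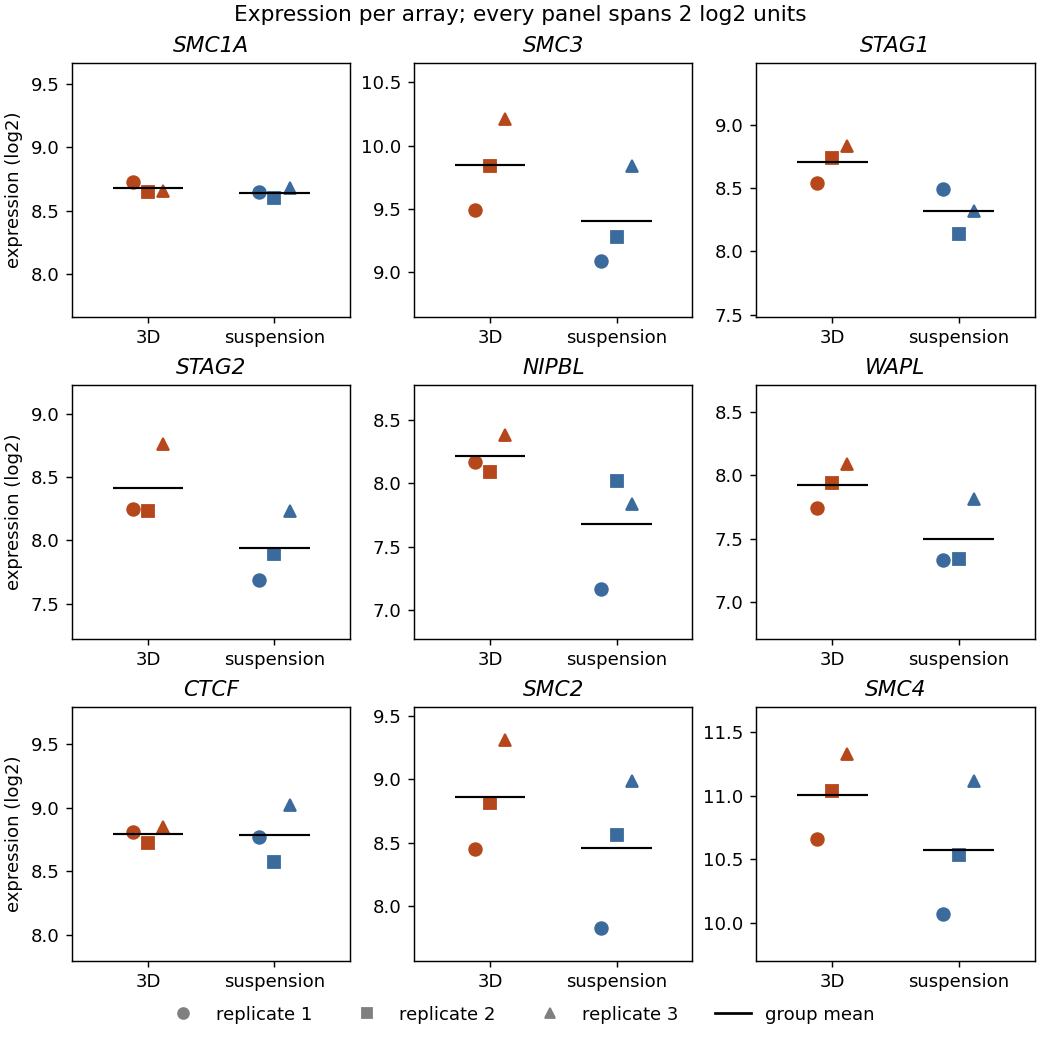
Expression (log2, vertical axis) of each gene on every array, with 3D at the left and suspension at the right, replicate numbers as marker shapes and group means as lines; every panel spans 2 log2 units. SMC1A lies between 8.60 and 8.73 on all 6 arrays, whereas SMC2 spreads from 7.83 to 9.31.

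SMC3, an ATPase of the cohesin ring, measured 9.49, 9.84 and 10.21 in 3D replicates 1, 2 and 3, against 9.09, 9.28 and 9.84 in suspension replicates 1, 2 and 3. Its groups overlapped, because suspension replicate 3 was as high as 3D replicate 2. The log2 difference of SMC3 was 0.45 ± 0.24 (SE), with a limma adjusted p of 0.554, and it was 0.26 without 3D replicate 3 and 0.29 without suspension replicate 1. SMC1A, its partner in the ring, measured 8.73, 8.65 and 8.66 in 3D, against 8.65, 8.60 and 8.68 in suspension. All of its 6 values lay close together, and the difference of 0.04 ± 0.15 (SE) had a 95% interval from -0.29 to 0.36. Whether SMC3 moved apart from SMC1A was tested on the log2 ratio within each array, of which only the difference between groups has meaning, since probe sets differ in affinity. SMC3 minus SMC1A was 0.76, 1.19 and 1.56 in 3D and 0.44, 0.68 and 1.15 in suspension, a difference of 0.41. The exact two-sided permutation test gave p = 0.2 (adjusted p 0.8 over the 4 ratios tested), and 3 arrays against 3 allow no p below 0.1.

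STAG1 and STAG2 encode alternative cohesin subunits, which make separate forms of the complex. STAG1 measured 8.54, 8.74 and 8.83 in 3D, against 8.49, 8.14 and 8.32 in suspension. Its groups did not overlap, with 3D replicate 1 just above suspension replicate 1. The log2 difference was 0.39 ± 0.17 (SE; limma adjusted p 0.496). STAG2 measured 8.25, 8.23 and 8.76 in 3D, against 7.69, 7.89 and 8.23 in suspension. The STAG2 groups met at 8.23, and replicate 3 was the highest of each group. Its log2 difference was 0.48 ± 0.20 (SE; limma adjusted p 0.496), and 0.30 without 3D replicate 3. The ratio of STAG2 to STAG1 did not separate the groups: the difference of STAG2 minus STAG1 was 0.09 (exact permutation p = 0.8).

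NIPBL had the largest difference of the 9 genes, and its antagonist WAPL differed by a like amount. NIPBL measured 8.17, 8.09 and 8.38 in 3D, against 7.17, 8.02 and 7.84 in suspension. Its groups did not overlap, but suspension replicate 1 stood far below the other suspension arrays. The log2 difference was 0.54 ± 0.22 (SE), or 1.45-fold, with a limma adjusted p of 0.485. Leaving out suspension replicate 1 brought it to 0.28, and the pairs gave 1.00, 0.07 and 0.54. WAPL measured 7.74, 7.94 and 8.09 in 3D, against 7.33, 7.34 and 7.81 in suspension, with suspension replicate 3 above 3D replicate 1. The difference of 0.43 ± 0.19 (SE; limma adjusted p 0.499) was more even over the pairs, at 0.41, 0.60 and 0.28. The ratio of loader to release factor, NIPBL minus WAPL, differed by 0.11 between the groups (exact permutation p = 0.7).

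CTCF, which sets the boundaries of cohesin loops, measured 8.81, 8.72 and 8.85 in 3D, against 8.77, 8.57 and 9.02 in suspension. The 3D values lay inside the suspension range. The difference was 0.01 ± 0.17 (SE; adjusted p 0.992), with a 95% interval from -0.36 to 0.38, and its sign changed between settings. Of all genes, 46% had a difference at or above that of CTCF and 41.5% at or above that of SMC1A, against 3.25% for NIPBL and 4.85% for STAG2. For the other 5 genes this share lay between 5.6% (SMC3) and 7.84% (STAG1).

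Leaving SMC1A and CTCF aside, both SMC genes of condensin and 2 cohesin genes, SMC3 and STAG2, spanned more within each group than between groups. SMC1A and CTCF did so as well, beside differences near 0. SMC1A spanned 0.08 within 3D and 0.09 within suspension, and CTCF spanned 0.13 and 0.45. SMC3 spanned 0.72 within 3D and 0.75 within suspension, beside its difference of 0.45. STAG2 spanned 0.53 and 0.54, beside 0.48. SMC2 measured 8.45, 8.81 and 9.31 in 3D, against 7.83, 8.56 and 8.99 in suspension, a difference of 0.40 ± 0.30 (SE; adjusted p 0.660). SMC4 measured 10.66, 11.04 and 11.33 in 3D, against 10.07, 10.53 and 11.12 in suspension, a difference of 0.44 ± 0.26 (SE; adjusted p 0.595). In each group replicate 1 was the lowest array and replicate 3 the highest for SMC2 and SMC4, as also for SMC3 and WAPL. The groups of SMC2 and SMC4 overlapped. SMC2 spanned 0.86 within 3D and 1.16 within suspension, and SMC4 spanned 0.67 and 1.05, each more than the difference between the groups. Without suspension replicate 1 the differences were 0.08 for SMC2 and 0.19 for SMC4. Without 3D replicate 3 they were 0.17 and 0.28, and without suspension replicate 3 they were 0.66 and 0.71. The ratio between the partners barely varied, with SMC4 minus SMC2 between 2.02 and 2.23 in 3D and between 1.97 and 2.24 in suspension (difference 0.04, exact permutation p = 0.7). Over the 9 genes, groups that did not overlap with higher 3D values were found for 2, STAG1 and NIPBL, while 8.28% of all genes had them.

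**Figure D2:**
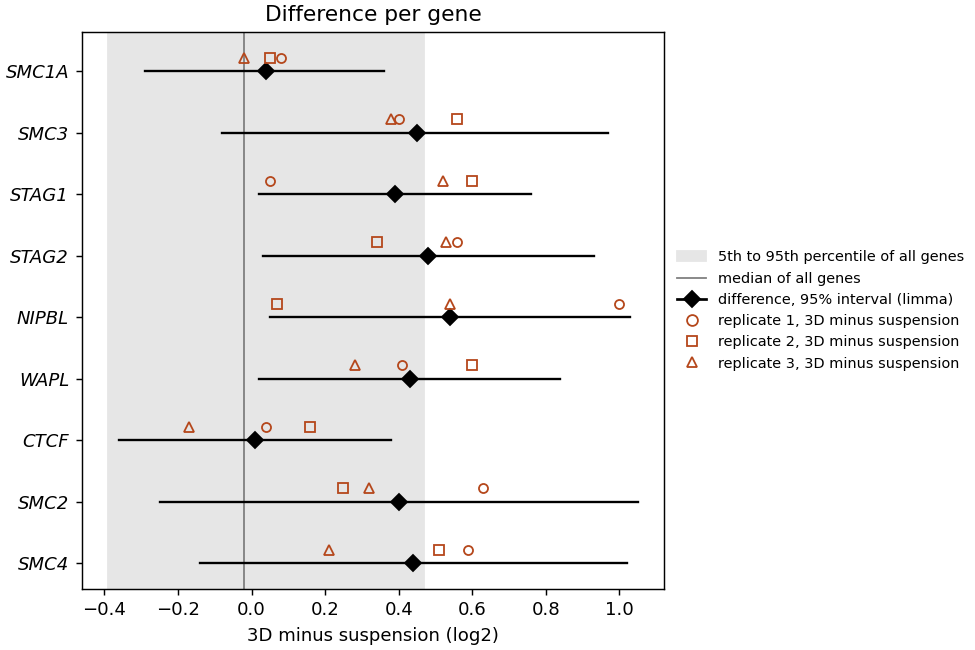
Log2 difference of 3D minus suspension (horizontal axis) for each gene, with the limma estimate and its 95% interval in black, the 3 same-numbered pairs as open marks, and the 5th to 95th percentile of all genes, -0.39 to 0.47, as a grey band. The 7 genes other than SMC1A and CTCF have all 3 pairs above 0.

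Over all genes, deviations from the group means correlated between same-numbered arrays at 0.521, 0.12 and 0.337 for numbers 1, 2 and 3. Number 2 was not matched best to itself, since 3D replicate 2 correlated at 0.149 with suspension replicate 3. The correlation of 3D replicate 3 with suspension replicate 2 was 0.23. Pairing by number is therefore an assumption, and the results with a block rest on it. The test was repeated with these numbers as the block. With the block none of the 9 passed over all genes (limma, adjusted p 0.144 for STAG2 to 0.986 for CTCF), where 0.0905% of all genes did. At an unadjusted p under 0.05 with the block, the same 7 were higher, where 10.0% of all genes were. When the fit with the block was limited to the 8342 genes with a mean of at least 6, which keeps all 9, NIPBL, STAG2, SMC3, SMC4 and WAPL rose in 3D (limma, adjusted p 0.0205, 0.0206, 0.0281, 0.0344 and 0.0363). In that fit 10.6% of the genes rose. SMC2 and STAG1 had adjusted p of 0.0517 and 0.0648 there. These 5 calls depended on single pairs and on scaling, and the count over the 8342 genes shifted with them. Without replicate 1, 1 of the 9 passed (STAG1), beside 458 of the 8342 genes in either direction. Without replicate 2, 3 passed (NIPBL, STAG2 and SMC2), beside 1457, and without replicate 3, 0 passed, beside 406. After the arrays were quantile-normalized once more, 3 passed (SMC3, STAG2 and SMC4), beside 1075.

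The profile over arrays, taken as each value minus the gene's own mean, showed what the genes shared. Averaged over the 9 genes it was 0.00, 0.13 and 0.40 in 3D replicates 1, 2 and 3, and -0.42, -0.22 and 0.11 in suspension. The 3D array was the higher one at every number, and suspension replicate 3 stood level with 3D replicate 2. WAPL followed this mean profile most closely, with a root mean square difference of 0.0786 log2, and SMC1A least, with 0.252. Among 8333 other genes with a mean of at least 6, the profiles most like it, by the same measure over the 6 arrays, were those of PPIG, a nuclear cyclophilin (0.0288), FXR1, an RNA-binding protein (0.0289), ZNF813, a zinc-finger gene (0.0334), PREPL, a peptidase-like protein (0.0391), and DDIAS, a gene named for suppressing damage-induced apoptosis (0.0412). Their log2 differences ran from 0.30 to 0.36, and none passed (limma, adjusted p 0.560 to 0.619).

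Cell cycle genes were set beside these profiles, because condensin genes are known to peak in dividing cells. A list of 20 genes of G2 and mitosis had a median level of 8.59, 9.40 and 9.52 in 3D replicates 1, 2 and 3, against 8.06, 9.08 and 9.32 in suspension. Replicate 1 was the lowest of each group, as for SMC2 and SMC4 of condensin and for SMC3 and WAPL of cohesin. Relative to each gene's own mean, the list's median was -0.58, 0.35 and 0.46 in 3D and -0.62, 0.08 and 0.42 in suspension. The mean profile of the 9 genes was 0.00, 0.13 and 0.40 in 3D and -0.42, -0.22 and 0.11 in suspension. At number 1 the list was thus nearly level between groups, while the 9 genes were not. The list's median log2 difference was 0.21, with 14 genes higher and 6 lower and 0 past limma's adjusted test, and its median in the pairs was 0.17, 0.33 and 0.16. A list of 20 S phase genes had a median difference of 0.05, with 11 higher and 9 lower. In bulk RNA, more cells in a phase and more RNA per cell cannot be told apart. The part of the cycle in the differences of SMC2, SMC4, SMC3 and WAPL was not tested.

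**Figure D3:**
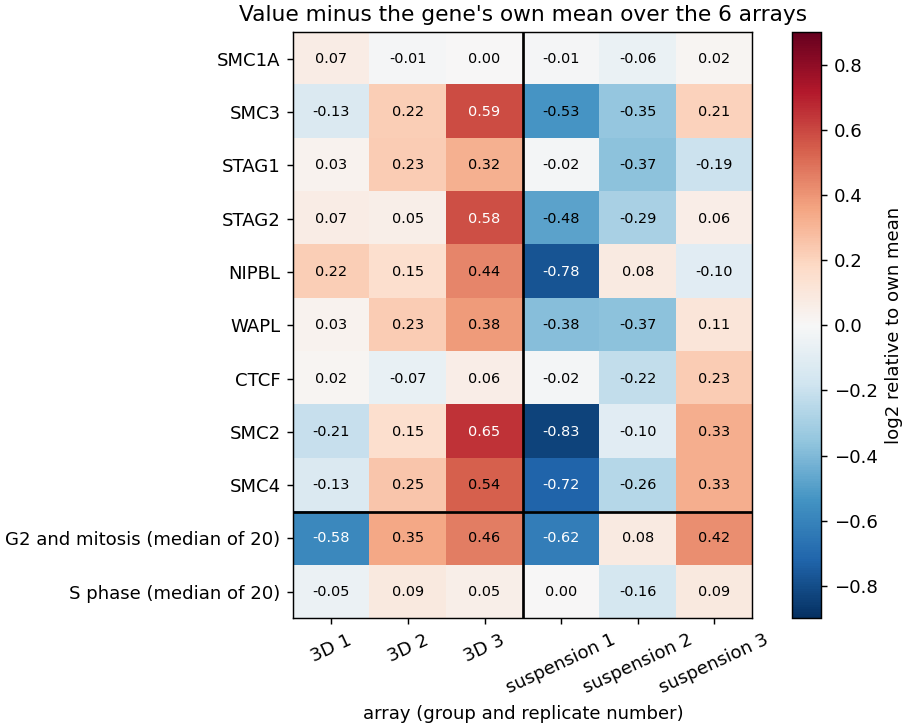
Value minus the gene's own mean over the 6 arrays (log2, colour and printed), with 3D arrays left of the vertical line and suspension arrays right of it; the bottom rows are medians of the cell cycle lists. Suspension replicate 1 is lowest for SMC2 (-0.83), NIPBL (-0.78) and SMC4 (-0.72), and SMC1A and CTCF stay between -0.22 and 0.23.

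The differences also stood beside a trend with gene span, the length from a gene's start to its end in RefSeq. Over 5 bins of all genes by span, each of 3536 or 3537 genes, the median log2 difference ran from -0.09 in the shortest to 0.06 in the longest. None of the 9 genes lay in the 2 shortest bins. NIPBL (190 kb), STAG2 (142 kb) and STAG1 (416 kb) lay in the longest, SMC4 (35.3 kb) in the middle one, and the other 5 in the bin from 37.3 to 86.8 kb. The 7 genes, at 0.39 to 0.54, stood above the medians of their bins, -0.02, 0.05 and 0.06. SMC1A (48.6 kb) and CTCF (76.7 kb) stayed near the median of theirs, 0.05. The part of span in these differences was not tested further.

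**Figure D4:**
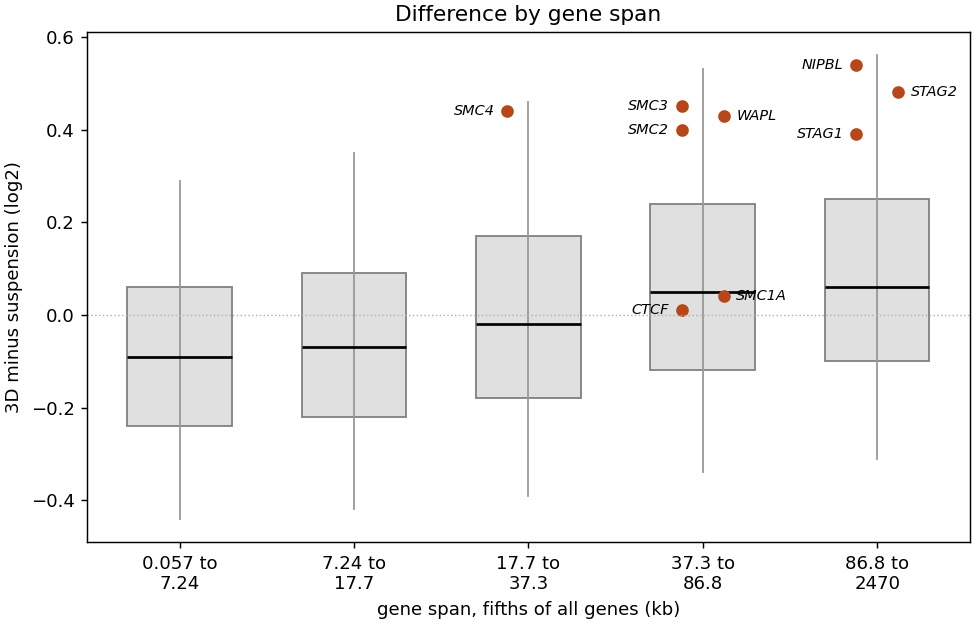
Log2 difference of 3D minus suspension (vertical axis) in 5 bins of all genes by span in kb (horizontal axis); boxes hold the middle 50% of genes with the median as a line, thin lines run from the 5th to the 95th percentile, and points are the 9 genes. CTCF and SMC1A sit inside the box of the bin from 37.3 to 86.8 kb, and the other 7 lie above the boxes of their bins.

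Further genes of chromosome structure were read from the same fit, as 7 lists with 39 of 42 genes measured. At an unadjusted p under 0.05 (limma) 8 of the 39 were higher and 0 lower, where 5.9% of all genes were higher and 3.97% lower, and 0 passed the adjusted test with or without the block. The 39 had a median log2 difference of 0.19, with 28 higher and 11 lower. Groups that did not overlap were found for 8 genes higher in 3D and for 1 lower, where 8.28% of all genes were higher and 8.03% lower in that way. With the block and a mean of at least 6, 11 of 34 genes rose and 1 fell, where 10.6% of genes rose and 3.78% fell (limma, adjusted p); genes named only from this fit were chosen after their values were seen. The 11 were SMC1B, PDS5B, ESCO1, ESCO2, SGO1, SGO2, NCAPG, SMC6, EID3, SLF2 and SMCHD1, and the 1 that fell was MAU2.

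The list of SMCHD1 and the SMC5/6 complex, the SMC machine of DNA repair and replication, had the highest median of the 7, at 0.49. All 9 of its measured genes, SMCHD1 among them, had a higher mean in 3D, but NSMCE1 was near 0. Its difference was 0.03 ± 0.17 (SE), and -0.03 after quantile normalization. In the list 5 genes had an unadjusted p under 0.05 (limma), beside the 5.9% of all genes that were higher. SLF1, which helps bring SMC5/6 to damaged DNA, measured 6.23, 6.22 and 6.34 in 3D, against 5.30, 5.89 and 5.51 in suspension. The groups of SLF1 were clearly apart, and its difference was 0.69 ± 0.18 (SE; limma adjusted p 0.372). Its mean over all arrays was 5.91, so the fit limited to a mean of at least 6 left it out. SMCHD1, an SMC-like protein of the inactive X chromosome, had 8.83, 8.69 and 8.97 in 3D, against 7.97, 8.09 and 8.57 in suspension, also without overlap (0.62 ± 0.19 SE, adjusted p 0.399). EID3, a subunit related to NSMCE4A, differed by 0.76 ± 0.26 (SE), SMC6 by 0.58 ± 0.26 and SLF2, the partner of SLF1, by 0.49 ± 0.17, with adjusted p of 0.411, 0.505 and 0.423.

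Regulators of the cohesin ring had differences of both signs. ESCO1, an acetyltransferase that modifies SMC3, measured 8.44, 8.61 and 8.77 in 3D, against 7.64, 8.01 and 8.23 in suspension. No suspension array reached the 3D values, and the difference was 0.64 ± 0.19 (SE; limma adjusted p 0.380). PDS5B, which works with WAPL and with the acetylated ring, differed by 0.50 ± 0.18 (SE), again without overlap (adjusted p 0.427). MAU2, which forms the loader with NIPBL, ran the other way. MAU2 measured 7.76, 7.44 and 7.09 in 3D, against 8.15, 7.62 and 7.84 in suspension, lower in 3D in all 3 pairs but with overlapping groups. Its difference was -0.44 ± 0.21 (SE; limma adjusted p 0.519), beside the 0.54 of NIPBL. The list of loading, release and acetylation had a median of 0.10, with 5 of 7 genes higher and 2 lower.

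The other subunits of the ring had a median of 0.09, with 2 of 4 genes higher and 2 lower. SMC1B stood at 0.65, STAG3 at 0.18, REC8 at 0.00 (counted as lower) and RAD21L1 at -0.19. Only SMC1B had a mean of at least 6. STAG3 and REC8 had means of 5.84 and 5.72, and RAD21L1 had 2.61, near the lowest value of 1.97, so these directions carry little weight. SMC1B, the meiotic relative of SMC1A, measured 8.65, 9.45 and 9.38 in 3D, against 8.23, 8.63 and 8.68 in suspension. Suspension replicate 3 lay just above 3D replicate 1, and the difference was 0.65 ± 0.23 (SE; adjusted p 0.423), while SMC1A stood at 0.04. The other condensin subunits had a median of -0.01, with 3 of 6 genes higher and 3 lower, beside the 0.40 and 0.44 of SMC2 and SMC4. Genes that protect or cleave cohesin had a median of 0.23 (2 of 4 higher). The axis and topoisomerase genes had 0.34 (4 of 4 higher), and loop factors other than CTCF had 0.05 (3 of 5 higher). None of the genes in these last 4 lists had an unadjusted p under 0.05 in limma without the block. With the block 6 had one, all higher, where 10.0% of all genes were higher in that way. They were 1 of 6 condensin subunits, 2 of 4 genes that protect or cleave cohesin, 3 of 4 axis and topoisomerase genes and 0 of 5 loop factors. With the block and a mean of at least 6, SGO2 and SGO1, which guard cohesin at centromeres, and NCAPG, a condensin I subunit, rose by 0.63, 0.50 and 0.43 (limma, adjusted p 0.0114, 0.0163 and 0.0344).

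**Figure D5:**
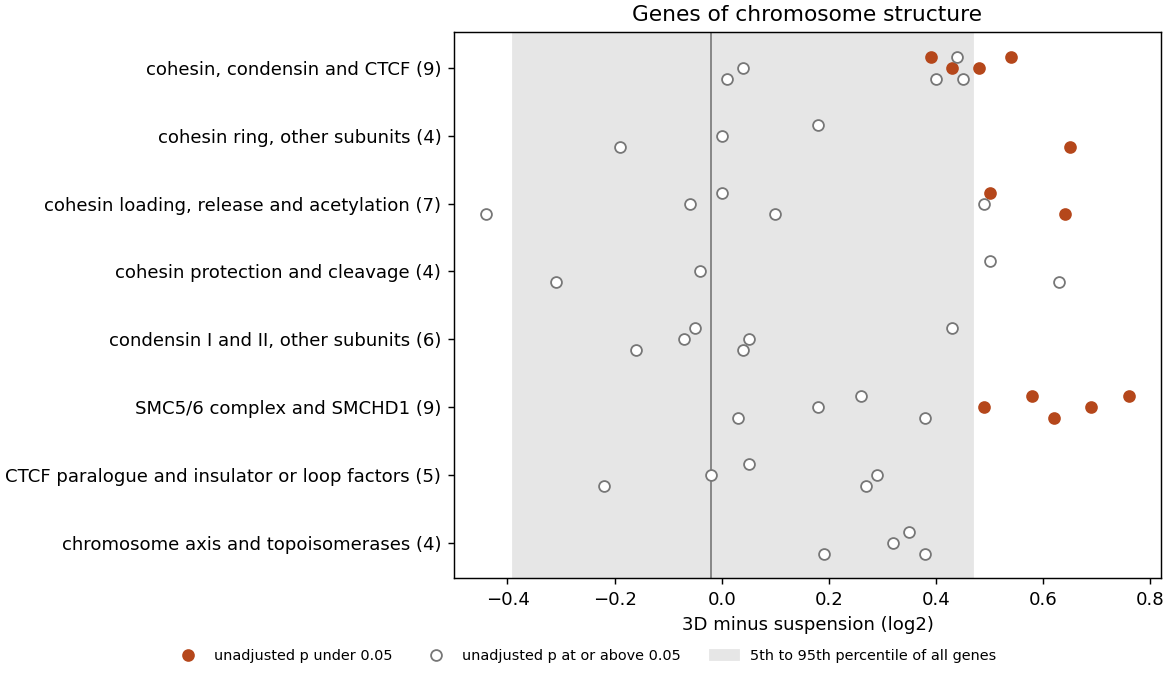
Log2 difference of 3D minus suspension (horizontal axis) for each measured gene, by list (numbers of genes in brackets), with filled points for an unadjusted p under 0.05 and the 5th to 95th percentile of all genes as a grey band. Filled points are 4 of 9 in the top row, 5 of 9 in the list of SMC5/6 and SMCHD1, 2 of 7 among loading, release and acetylation (ESCO1 and PDS5B) and 1 of 4 among other ring subunits (SMC1B), all at or above 0.39.

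Over the whole data set, log2 values ran from 1.97 to 13.58, array medians lay between 5.55 and 5.64, and correlations between arrays ran from 0.971 to 0.991. Means of 13 T cell markers ran from 6.45 to 11.74, and those of 30 markers of other cell types had a median of 4.30, with CD79A highest at 8.28. The T cell markers had a median log2 difference of -0.21 (4 higher, 9 lower) and the other markers -0.09 (7 higher, 23 lower). All 9 genes of cohesin, condensin and CTCF had means between 7.71 and 10.79. With 3 arrays in each group, precision is limited by their number.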

How the data were processed

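Total RNA of 6 Jurkat samples was hybridised to 1-colour arrays after biotin labelling, per the labels' protocols. The authors deposited a table of log2 values, 1 per probe set and array, with RMA and the Transcriptome Analysis Console named in the submitters' processing notes. Versions, settings and build are not given in the sources used here. Since RMA gives every array one distribution, a change common to most genes would be lost, and differences of dim probe sets are shrunk. Values were used as deposited, with 0 columns left unused.

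Of 21448 probe sets, 17709 had 1 gene symbol, 0 several and 3739 none in the platform table. All 17709 matched RefSeq (GRCh38.p14) by gene identifier. The probe set of highest mean was kept per gene (17687 genes, 20 with more than 1). Groups and replicate numbers came from sample titles.

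Groups were compared in R 4.3.3 by limma 3.58.1 (functions lmFit and eBayes), two-sided and with no block, Benjamini-Hochberg adjusted over all genes at a threshold of 0.05, with 4 residual and 6.79 prior degrees of freedom. Ratios of genes were tested by exact permutation (scipy 1.17.1). Deviations from the group means correlated between arrays of one number at 0.521, 0.120 and 0.337. As all exceed 0.1, the numbers were treated as pairs. This is an assumption, because 3D replicate 3 with suspension replicate 2 (0.230) and 3D replicate 2 with suspension replicate 3 (0.149) also exceed 0.1. The block had 2 residual and 9.78 prior degrees of freedom, and 25.0 prior with a mean of at least 6. The fits were run on data simulated from the same model with independent noise. That run checks the computation, not whether the arrays follow the model.

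The genes, lists and motifs were chosen with earlier results of these data known. Named genes are all members, the 8 of smallest p in the wider lists, those passing over all genes with or without the block (none), and the 5 of most similar profile. MAU2, ESCO2, SGO1, SGO2, NCAPG, STAG3, REC8, RAD21L1 and NSMCE1 were named after their values were seen. Promoters came from RefSeq; plots used matplotlib 3.10.9 under Python 3.11.15. YY1, TOP2B and NSMCE3 of the wider lists were not analysed here.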

Additional observations from a re-analysis of the deposited data

How the results depend on the processing

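No array, filter or scaling tried without the replicate block brought any of the 9 genes past the threshold, and 0 of all genes passed in those settings. With the block, 16 genes passed over all genes, 0 of the 9 and 0 of the 39 wider genes. Leaving out pair 1, 2 or 3 with the block gave 21, 150 or 36 of all genes, 0 of the 9, and 0 to 1 of the wider genes. A mean of at least 6 with the block gave 1199 of the 8342 genes kept, 5 of the 9 and 12 of the 34 wider genes kept. The next settings were chosen after the data were seen. Leaving out pair 1, 2 or 3 in that fit gave 458, 1457 or 406 of the 8342, 0 to 3 of the 9 and 4 to 10 of the 34. A further quantile normalization in that fit gave 1075, 3 and 10. That normalization with the block over all genes gave 0. The cause of these shifts was not tested; the fit's spread is mostly shared between genes, with 25.0 prior and 2 residual degrees of freedom. The median log2 difference of the 9 genes ran from 0.28 to 0.62 without 1 array and was 0.38 after quantile normalization.

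All 7 higher genes stayed higher in each of 20 other settings, down to 0.08 for SMC2. Several of these settings could not move a difference. The block with all arrays, the filter on the mean and a prior variance following the mean alter only the spread or the adjustment. Averaging probe sets left these genes, with 1 probe set each, as they were. Others repeat an estimate with the block or filter added, so only new scaling and left-out arrays or pairs re-estimated the differences. SMC1A turned to -0.02 after quantile normalization, with or without the block. CTCF turned to -0.05 there, and ran from -0.10 to 0.12 without 1 array, and leaving out pair 1, 2 or 3 in the blocked fit gave -0.01, -0.07 or 0.10, also at a mean of at least 6. Without 1 array, NIPBL minus WAPL ran from -0.07 to 0.36, STAG2 minus STAG1 from -0.12 to 0.23 and SMC4 minus SMC2 from -0.03 to 0.11, while SMC3 minus SMC1A stayed between 0.22 and 0.61. As pairs in a replicate block, the exact sign-change test gave p = 0.75, 0.75, 1 and 0.25 for these 4 ratios, where 3 pairs allow no p below 0.25.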
